A study of Mus musculus with 5 samples.

Results

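The sites described here are promoter regions of mouse embryonic stem cells (mESCs) at which the RNF12 WT peak list and the RNF12 H569A,C572A peak list overlap while the REX1 list has no overlapping peak. They were selected from the lists themselves. A site is an RNF12 WT peak on chromosomes 1 to 19 or X that shares at least 1 bp with an RNF12 H569A,C572A peak and none with a REX1 peak, and whose summit, the position of highest enrichment, lies within 1 kb of a transcription start site (TSS) of any annotated transcript. There are 7339 such sites. They make up 19.5% (95% interval 19.1% to 19.9%) of the 37584 RNF12 WT peaks with a promoter summit, and 38.0% (37.3% to 38.6%) of the 19335 RNF12 WT peaks of any location that have a mutant partner and no REX1 partner. The full RNF12 WT list has 97602 peaks.

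The peaks come from ChIP-seq, chromatin immunoprecipitation followed by sequencing, of 3 V5-tagged proteins, with 1 library behind each list. The labels place the REX1 library in the series, while the study describes REX1 occupancy in mESCs as determined in earlier work; whether the REX1 and RNF12 libraries were made side by side was not settled. RNF12 WT and RNF12 H569A,C572A are FLAG-V5-tagged versions expressed from a stably introduced, strongly active promoter in Rlim+/- mESCs. The substitution lies in the catalytic RING domain and inactivates the ligase. REX1 was FLAG-V5-tagged in mESCs labelled WT. The cells are female hybrids of the 129/Sv and Cast/Ei mouse strains. The RNF12 cells received 15 µM MG132, a proteasome inhibitor, for 3 h before crosslinking with 2 mM DSG and 1% formaldehyde, so both RNF12 lists describe tagged, overexpressed protein under blocked degradation. A further 2 libraries of the series are controls and were not analysed here. By title they are a REX1 input and an RNF12 input. Which control the peak caller used for each list was not settled, so enrichment values are set side by side and never compared between lists. The sites have no replicates: intervals on shares are 95% Wilson intervals, intervals on differences are 95% Newcombe intervals, and both cover counting error only. The lists carry no read totals and the depth is unknown.

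RNF12, encoded by the X-linked gene Rlim, is an E3 ubiquitin ligase: it attaches ubiquitin to chosen proteins, many of which are then degraded by the proteasome. REX1, encoded by Zfp42, is a zinc-finger transcription factor of pluripotent cells related to YY1, and is a well-studied RNF12 substrate. Most mammalian promoters that are active in many tissues lie in CpG islands, GC-rich stretches in which the dinucleotide CG is not depleted, and carry short elements such as the GC box, bound by SP and KLF factors.

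The sequences of the highest-ranked sites are shown first. Among the 4680 sites whose nearest TSS belongs to a protein-coding gene, whose summit sequence occurs once in the genome and whose summit window holds no soft-masked base (a base marked as repetitive or low in complexity in the reference), sites were ranked by the sum of their ranks for RNF12 WT and for mutant fold enrichment. The first 6 comprise 2 sites at Filip1l and 1 each at Patl1, Stau1, Chn1 and H2afv. The bases from 50 bp before to 50 bp after the summit of 5 of them follow, from RefSeq GRCm38 (mm10), forward strand, with the 11 bases centred on the summit in capitals; the sixth window holds an untranslated region and is left out.
Patl1, chr19:11912930-11913030: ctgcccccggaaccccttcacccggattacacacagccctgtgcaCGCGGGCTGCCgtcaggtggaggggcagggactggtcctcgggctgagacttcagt
Stau1, chr2:166996345-166996445: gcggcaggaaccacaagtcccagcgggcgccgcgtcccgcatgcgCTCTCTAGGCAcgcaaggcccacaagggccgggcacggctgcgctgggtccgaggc
Chn1, chr2:73774817-73774917: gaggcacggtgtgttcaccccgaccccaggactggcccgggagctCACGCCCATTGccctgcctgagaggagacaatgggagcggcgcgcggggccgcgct
H2afv, chr11:6444481-6444581: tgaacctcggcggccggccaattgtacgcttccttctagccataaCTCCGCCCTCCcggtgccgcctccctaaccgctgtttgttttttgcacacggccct
Filip1l, chr16:57549360-57549460: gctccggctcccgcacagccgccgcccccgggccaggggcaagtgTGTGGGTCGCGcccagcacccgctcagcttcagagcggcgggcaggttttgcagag
The 5 windows have a GC content of 60.4% to 74.3% and hold between 6 and 12 CG dinucleotides. The median GC content of such a window over all 7339 sites is 66.3% (quartiles 62.4% and 71.3%).

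A second set shows, in capitals, 1 site for most of the short elements that occurred more often at the summits than in their flanks, as described further on. For the CRE and the CTCF core the intervals of summits and flanks overlap, so those examples are shown only because the lower bound at the summits exceeds the flank share. Each is the highest-ranked site with that element whose window holds no untranslated region and could be shown. The element at Ipo5 is a GC box, at Cdc20b a cAMP response element (CRE), at 6430548M08Rik an E-box, at Rgs9 a CTCF core, at Sirt1 the word GCAGCAGC and at Slc20a2 the RNF12 logo string with up to 1 mismatch.
Ipo5, chr14:120911569-120911669: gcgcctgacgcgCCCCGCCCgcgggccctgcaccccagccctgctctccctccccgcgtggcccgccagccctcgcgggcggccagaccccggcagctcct
Cdc20b, chr13:113035046-113035146: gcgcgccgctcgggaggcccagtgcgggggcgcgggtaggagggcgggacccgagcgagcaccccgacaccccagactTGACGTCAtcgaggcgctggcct
6430548M08Rik, chr8:120114005-120114105: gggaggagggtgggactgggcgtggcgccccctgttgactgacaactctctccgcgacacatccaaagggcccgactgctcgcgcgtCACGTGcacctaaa
Rgs9, chr11:109298206-109298306: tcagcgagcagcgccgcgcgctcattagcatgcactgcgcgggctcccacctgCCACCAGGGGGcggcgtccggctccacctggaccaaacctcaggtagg
Sirt1, chr10:63338295-63338395: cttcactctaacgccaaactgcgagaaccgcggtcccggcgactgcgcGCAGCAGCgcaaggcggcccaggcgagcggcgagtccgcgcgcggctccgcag
Slc20a2, chr8:22477078-22477178: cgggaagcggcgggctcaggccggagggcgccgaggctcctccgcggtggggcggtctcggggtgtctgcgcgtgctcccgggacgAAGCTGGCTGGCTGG
The Stau1 window of the first set also holds an NRF1 core, whose first base lies 13 bp before the summit on the forward strand.

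The ranked sites carry a high enrichment in both RNF12 lists. At Patl1, which encodes an mRNA decay factor, the RNF12 WT peak (chr19:11912869-11913086) is enriched 8.54-fold with a −log10 q of 13.4, and the corresponding values of its mutant partner are 23.6 and 54.9. Its summit lies 537 bp downstream of the nearest TSS, in an intron, and the nearest REX1 peak is 109 bp from the edge of the RNF12 WT peak. At Stau1, coding for an RNA-binding protein of mRNA transport and decay, the RNF12 WT fold enrichment is 9.09 and the mutant fold enrichment 21.8, with the summit 96 bp upstream of the TSS and a REX1 peak at 55 bp. At Chn1, a GTPase-activating protein gene, the values are 9.32 and 21.005, with the summit in an intron 176 bp downstream of the TSS and a REX1 peak 242 bp away. At H2afv, which encodes an H2A.Z histone variant, they are 8.58 and 21.7, and a REX1 peak begins 19 bp away. All 4 of these sites thus have a REX1 peak close by that does not touch them.

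Filip1l has 2 of these sites, with summits 5 bp upstream and 168 bp downstream of a TSS and fold enrichments of 9.69 and 8.95 in the RNF12 WT list. Both rest on the same mutant peak, with a fold enrichment of 21.005, and the nearest REX1 peaks are 5327 and 5665 bp away. The other ranked sites are at Ppip5k1, an inositol pyrophosphate kinase gene (RNF12 WT 11.5, mutant 19.8), at Ipo5, coding for a nuclear import receptor (8.02 and 20.9), at Ccnh, the cyclin of the CDK-activating kinase (10.8 and 18.8), and at Mthfsd (8.37 and 20.0). REX1 peaks stand 135, 170 and 22 bp from the sites at Ppip5k1, Ipo5 and Ccnh, and at Mthfsd a REX1 peak begins where the RNF12 WT peak ends, at a gap of 0 bp.

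Across all 7339 sites the RNF12 WT fold enrichment has a median of 4.59 (quartiles 3.80 and 5.58, range 1.73 to 11.9), and the −log10 q a median of 4.72 (quartiles 3.48 and 6.56). The strongest mutant peak at each site has a median fold enrichment of 8.37 (quartiles 5.87 and 12.3). These values chose the sites in part, since a peak had to be called in both lists, and are given as a description. The RNF12 WT peak is 143 bp wide at the median, against 218 bp for promoter sites in all 3 lists and 110 bp for those in the RNF12 WT list alone, and the part of width in the choice of sites was not tested. The RNF12 WT and mutant summits lie a median of 74 bp apart (quartiles 26 and 204 bp). Of the sites, 7148 overlap 1 mutant peak, 189 overlap 2 and 2 overlap 3. Counting the strongest partner only, the sites share 6689 distinct mutant peaks, so neighbouring sites can rest on the same mutant peak. The RNF12 WT −log10 q reached 5 at 47.2% of the sites, against 66.3% of the 20104 promoter sites in all 3 lists and 33.3% of the 7189 promoter sites in the RNF12 WT list alone.

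The sites fall to 5675 nearest genes, of which 4402 have 1 site, 974 have 2 and 299 have 3 or more. Ptprs, a receptor tyrosine phosphatase gene with 11 sites, and Flg, the filaggrin gene with 8, have the most. At the 1 kb limit, the sites just inside are at Zfp638, Pla2g6 and Kcna1, each 1000 bp from a TSS, with RNF12 WT fold enrichments of 4.89, 5.35 and 4.81. Those just outside are at Hectd4, Gabre and AC127342.1, with values of 3.80, 2.80 and 2.67.

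By CpG and GC content the sites stood between the promoter sites in all 3 lists and those of the RNF12 WT list alone. From 100 bp before to 100 bp after the summit, 61.5% (60.4% to 62.6%) were CpG-rich, meaning a GC content of at least 50% and an observed to expected CpG ratio of at least 0.6. The share was 83.0% (82.5% to 83.5%) for sites in all 3 lists, 11.8% (11.0% to 12.5%) for sites in the RNF12 WT list alone and 13.7% (13.0% to 14.4%) for the 9123 promoter summits in the REX1 list alone. At the 2952 RNF12 WT promoter sites shared with REX1 and not the mutant it was 28.6% (27.0% to 30.3%). Around the 93148 TSSs of protein-coding genes it was 41.9%. The difference was −21.5 percentage points (−22.7 to −20.3) from sites in all 3 lists and 49.8 points (48.4 to 51.1) from sites of the RNF12 WT list alone. The observed to expected CpG ratio had a median of 0.687 at the 7339 sites, 0.819 in all 3 lists, 0.341 in the RNF12 WT list alone and 0.462 at sites shared with REX1 alone. The median GC content differed less, at 66.3%, 68.3%, 60.4% and 60.4%. Sequence was not used to choose the sites. The CpG-rich share was 58.7% in the 1835 sites with the lowest RNF12 WT fold enrichment and 65.8% in the 1835 with the highest, with 62.2% and 59.4% in the groups between. With all 3 lists held to a −log10 q of at least 5 the share was 74.2% and the difference from sites in all 3 lists −13.1 points. That threshold also dropped weaker REX1 peaks, so RNF12 sites overlapped only by weaker REX1 peaks joined the set. It held 5629 sites, while 3467 of the 7339 had an RNF12 WT value of at least 5.

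**Figure D1:**
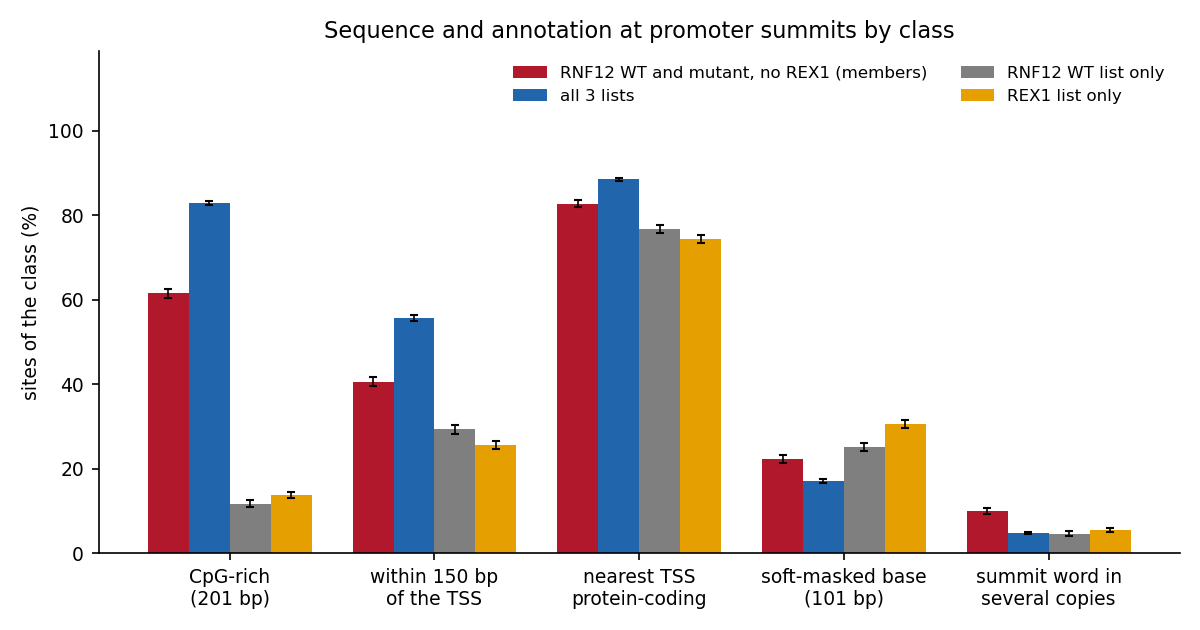
Share of promoter sites (%, bars) with each feature on the x axis, for the 7339 sites in both RNF12 lists without REX1, sites in all 3 lists, sites in the RNF12 WT list only and sites in the REX1 list only; error bars are 95% Wilson intervals. The CpG-rich share is 61.5% at the sites of both RNF12 lists without an overlapping REX1 peak, below the 83.0% of sites in all 3 lists. It is above the 11.8% of the RNF12 WT list only and the 13.7% of the REX1 list only. Summit words in several copies are most frequent at the sites of both RNF12 lists without an overlapping REX1 peak.

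The summits of these sites lay near the TSS less often than those of sites in all 3 lists. Of the 7339 summits, 40.6% (39.5% to 41.8%) lay within 150 bp of the nearest TSS, against 55.7% (55.0% to 56.4%) of sites in all 3 lists, a difference of −15.1 points (−16.4 to −13.8), and 29.3% of sites in the RNF12 WT list alone. A further 39.95% lay more than 150 bp downstream, against 29.6% in all 3 lists, 38.7% of RNF12 WT promoter sites shared with REX1 alone, 40.1% in the REX1 list alone and 42.9% in the RNF12 WT list alone, and 19.4% more than 150 bp upstream. Summits downstream of the TSS made up 62.8% (61.7% to 63.9%), 2.22 points (0.918 to 3.51) more than in all 3 lists and 3.27 points (1.68 to 4.85) more than in the RNF12 WT list alone. The difference from sites in all 3 lists was 1.18 points (−0.834 to 3.17) where the RNF12 WT and mutant peaks overlapped by at least 50% of both. It was 1.79 points (−0.267 to 3.80) with no REX1 peak within 1 kb of the summit. In both settings its interval held 0. The median signed position was 78 bp downstream, against 34.5 bp for sites in all 3 lists.

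Over all RNF12 WT promoter summits, the share that belongs to these sites was lowest at the TSS. It was 15.2% (14.2% to 16.4%) in the 50 bp before the TSS and 15.0% (14.0% to 16.2%) in the 50 bp after it. It reached 24.4% (23.1% to 25.8%) between 300 and 500 bp downstream and 20.8% (19.3% to 22.3%) between 150 and 300 bp upstream. Within the sites, the CpG-rich share went from 70.7% in the 50 bp before the TSS to 57.9% between 300 and 500 bp downstream and 39.2% beyond 500 bp upstream. Sites in all 3 lists had a higher CpG-rich share in each of these bins, with 90.7%, 78.5% and 63.5%.

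**Figure D2:**
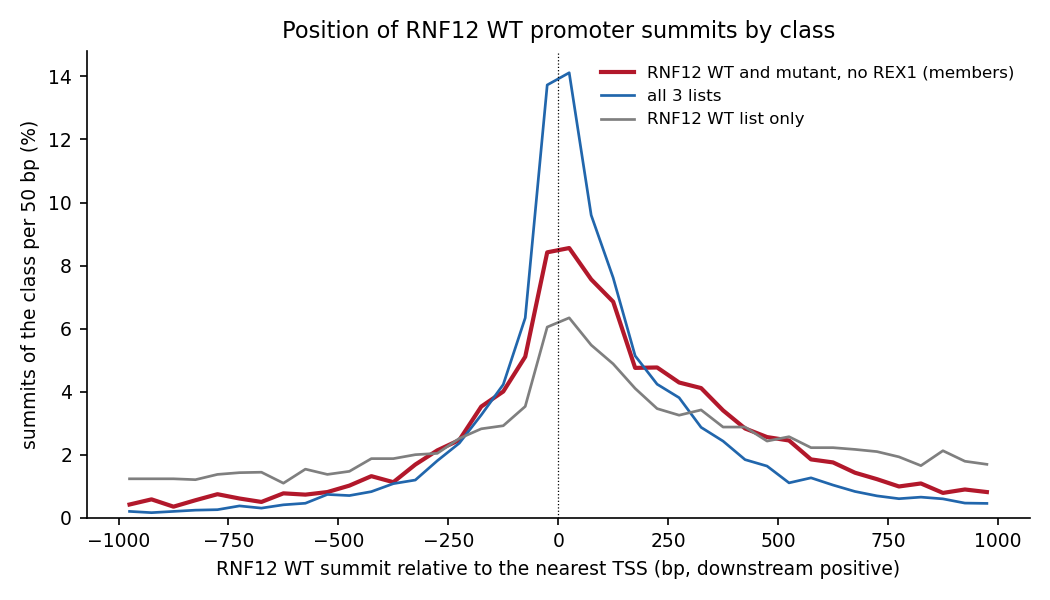
Percentage of the summits of each class (y axis) per 50 bp of signed distance from the nearest TSS (x axis, bp, downstream positive), for sites of both RNF12 lists without an overlapping REX1 peak, sites in all 3 lists and sites in the RNF12 WT list only. The sites without an overlapping REX1 peak in both RNF12 lists peak at the TSS like the others but less sharply than sites in all 3 lists, with 39.95% of summits 150 to 1000 bp downstream against 29.6%.

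By annotation, 30.5% of the summits lay in an untranslated region or non-coding exon, 32.7% in an intron, 22.0% in a coding exon and 14.8% outside genes. The intronic share was 7.69 points (6.47 to 8.92) above that of sites in all 3 lists. It was below the 36.5% of sites shared with REX1 alone, the 37.0% of the RNF12 WT list alone and the 42.8% of the REX1 list alone. The nearest TSS belonged to a protein-coding gene at 82.8% (81.9% to 83.6%) of the sites, against 88.5% in all 3 lists, and to a processed pseudogene, a gene copy inserted by reverse transcription, at 4.71% (4.25% to 5.22%) against 1.66%. In the RNF12 WT list alone and the REX1 list alone the protein-coding shares were 76.8% and 74.4%, and the pseudogene shares 5.48% and 4.34%. Sites shared with REX1 alone had 80.9% and 2.54%. Long non-coding or antisense RNA genes were nearest at 5.95% and miRNA genes at 1.24%.

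The label of these sites as lacking REX1 holds for the RNF12 WT peak itself and less for its surroundings. The nearest REX1 peak lay a median of 309 bp from the edge of the RNF12 WT peak (quartiles 111 and 2161 bp). It lay within 100 bp at 22.5% (21.5% to 23.4%) of the sites, within 200 bp at 39.6% (38.5% to 40.8%), and within 1000 bp at 68.9% (67.9% to 70.0%). At 18 sites the peaks touched without sharing a base. The 7189 promoter sites of the RNF12 WT list alone, which lack REX1 by the same criterion, had a REX1 peak within 200 bp at 14.5% (13.7% to 15.3%), a difference of 25.1 points (23.7 to 26.5). Requiring that no REX1 peak lie within 1 kb of the summit left 2376 sites, of which 42.8% (40.8% to 44.8%) were CpG-rich. Requiring the RNF12 WT and mutant peaks to overlap by at least 50% of both changed the number to 3008, with the REX1 criterion unchanged. The mutant peak at a site overlapped a REX1 peak itself at 34.3% (33.2% to 35.4%) of the sites, counting the strongest mutant partner.

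**Figure D3:**
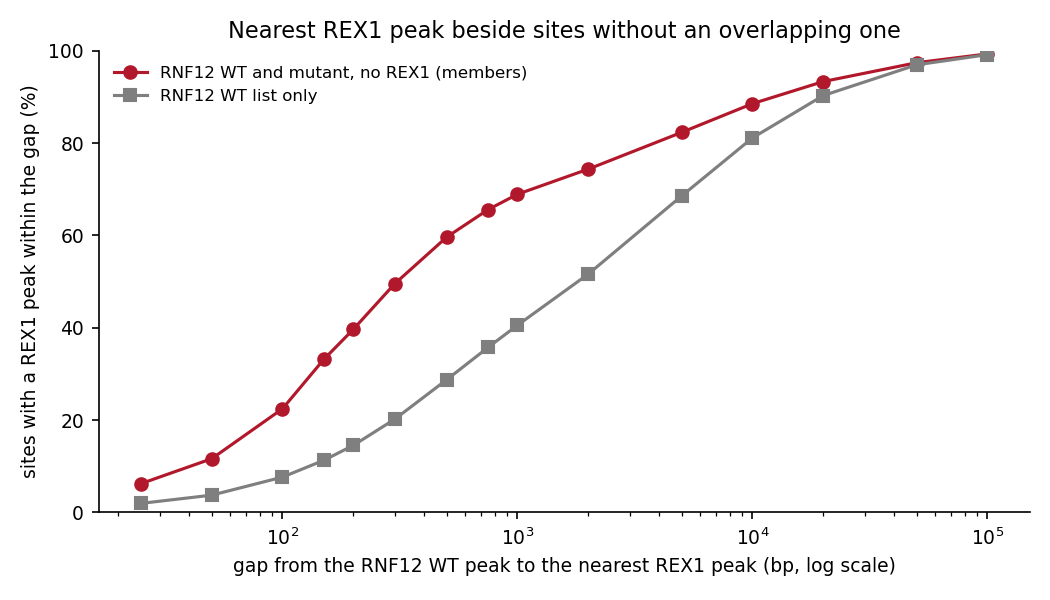
Cumulative share of sites (y axis, %) with a REX1 peak within a given gap of the RNF12 WT peak (x axis, bp, log scale), for sites of both RNF12 lists without an overlapping REX1 peak and promoter sites of the RNF12 WT list only. The sites with a mutant partner lie above the RNF12 WT-only sites up to 10 kb, with 39.6% against 14.5% at 200 bp.

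At the level of the gene the same held. Of the 5675 nearest genes, 78.4% (77.3% to 79.5%) had a REX1 summit within 1 kb of some TSS of the gene. This share was 62.5% with all lists at a −log10 q of at least 5, where weaker REX1 peaks were no longer counted. It was 39.6% where no REX1 peak lay within 1 kb of the summit. A further count, over all 5675 genes, gave 63.2% (61.9% to 64.4%) with a site shared by all 3 lists. For the 4523 protein-coding nearest genes the REX1 share was 86.0% (85.0% to 87.0%), against 67.5% (66.8% to 68.1%) of all 21755 protein-coding genes. Only 14992 of the latter had an RNF12 WT promoter summit, so the 67.5% includes genes that could hold no site. Among the 5573 nearest genes of sites in the RNF12 WT list alone, of any type, 68.0% (66.8% to 69.3%) had a REX1 summit, against 78.4% here. For the 332 processed pseudogenes nearest to the sites the REX1 share was 13.6% (10.3% to 17.7%).

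Sites close to a REX1 peak and sites far from one differed in sequence. Of the 2909 sites with a REX1 peak within 200 bp, 76.5% (74.9% to 78.0%) were CpG-rich, and their mutant peak had a median fold enrichment of 10.3. Of the 2149 sites with a gap of over 200 and up to 1000 bp, 61.7% (59.6% to 63.7%) were CpG-rich, with a median mutant value of 8.22. Of the 1440 sites with a gap of over 1000 and up to 10000 bp, 40.8% (38.3% to 43.4%) were CpG-rich, with a median mutant value of 6.46. The 841 sites farther than 10 kb from any REX1 peak, 11.5% of all, had a share of 44.8% (41.5% to 48.2%), with a median mutant value of 7.30, above that of the preceding group. The RNF12 WT fold enrichment hardly varied over these 4 groups, with medians of 4.58 to 4.59.

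The sites farthest from REX1 held more repeated sequence. The 32 bases at the summit occurred more than once in the genome at 35.2% (32.04% to 38.5%) of the 841 sites and at 3.54% (2.93% to 4.28%) of those within 200 bp of a REX1 peak, and a processed pseudogene was nearest at 20.5% and 0.722%, respectively. Over all 7339 sites the repeated share was 9.95% (9.28% to 10.7%), against 4.81% (4.52% to 5.11%) in all 3 lists and 4.65% (4.18% to 5.16%) in the RNF12 WT list alone. The reads of the RNF12 libraries were 36 bases long, and the part of read placement in the calls at repeated summits was not tested. The 730 repeated sites had a median RNF12 WT fold enrichment of 3.83, against 4.68 for the 6609 sites with a summit sequence found once. Without the repeated sites the CpG-rich share was 64.7% and the share of nearest genes with a REX1 summit 83.2%.

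Among the sites farther than 10 kb from REX1 with a summit sequence found once, the site with the lowest sum of ranks over both RNF12 lists was at Sipa1l3, a gene for a GTPase-activating protein. Its RNF12 WT fold enrichment was 10.7 and the mutant value 18.7, with the summit 38 bp upstream of the TSS and the nearest REX1 peak 11014 bp away. At Timm23, a subunit of the mitochondrial inner-membrane import channel, the values were 7.34 and 22.3, and no REX1 peak lay within 41505 bp. Kbtbd2 (9.02 and 17.8), Rad54b, a homologous recombination gene (11.2 and 16.1), and the transcription factor gene Mef2a (7.52 and 18.018) followed, with gaps to REX1 of 10528, 12646 and 44819 bp. The RNF12 WT summits at these 5 genes that lie closest to a TSS were 13 to 44 bp from it. These sites were picked after their values were seen.

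The REX1 logo string, ATGGCKVC, with K for G or T and V for any base but T, was looked for on either strand, up to 50 bp from a summit and in flanks 250 to 350 bp away. It occurred at 105 of the 7339 summits, 1.43% (1.18% to 1.73%), below the 2.03% (1.81% to 2.27%) of their flanks. At promoter sites in all 3 lists it occurred at 6.07% against 2.40% in flanks, and at promoter summits of the REX1 list alone at 7.99% against 1.92%. In windows of the same length at protein-coding TSSs it occurred at 4.58%. The difference from sites in all 3 lists was −4.64 points (−5.06 to −4.20), and from sites of the RNF12 WT list alone, where the share was 2.16%, −0.725 points (−1.16 to −0.294). The string was not used to choose the sites, but the absence of a REX1 peak was. The YY1 core AAGATGGC, which overlaps the REX1 string, occurred at 0.382% of summits and 0.613% of flanks.

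Other promoter elements were more frequent at the summits than in the flanks. The GC box GGGCGGGG occurred at 507 summits, 6.91% (6.35% to 7.51%), against 5.68% of flanks, and the KLF core GGGYGKGGC, where Y is C or T and which can overlap a GC box, at 5.44% (4.94% to 5.98%) against 3.74%. The E-box CACGTG, bound by MYC, MAX and USF factors, stood at 3.49% (3.09% to 3.93%) against 1.98%. The shares of these 3 strings did not differ from those of sites in all 3 lists beyond counting error, with differences of −0.130 points (−0.795 to 0.565), −0.338 points (−0.934 to 0.289) and −0.0981 points (−0.575 to 0.411). The NRF1 core GCGCATGCG occurred at 0.436% against 0.177% of flanks, the CRE TGACGTCA at 0.409% against 0.211%, and the E2F core TTCCCGCC at 1.13% against 0.763%, with summit and flank intervals that overlap for the CRE and E2F. With no REX1 peak within 1 kb of the summit the E2F core was at 0.631%, and with a −log10 q of at least 5 in all lists the NRF1 core was at 0.675%. With all lists held to a −log10 q of at least 5, which also let in sites with a weaker REX1 peak, the ETS core CCGGAAGT was at 1.49% (1.21% to 1.84%) of summits. Without that threshold it did not stand above its flanks at these sites, with 0.722% (0.553% to 0.943%) against 0.613%, while at sites in all 3 lists it occurred at 2.05%, a difference of −1.33 points (−1.59 to −1.04). At protein-coding TSSs the shares were 7.19% for the GC box, 6.07% for the KLF core, 2.51% for the E-box, 0.745% for NRF1, 0.816% for the CRE, 0.787% for E2F and 2.39% for ETS. NRF1 was also less frequent than in all 3 lists, with a difference of −0.937 points (−1.15 to −0.702). So were the E2F core, at −0.426 points (−0.709 to −0.112), and the CRE, at −0.228 points (−0.399 to −0.0266).

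**Figure D4:**
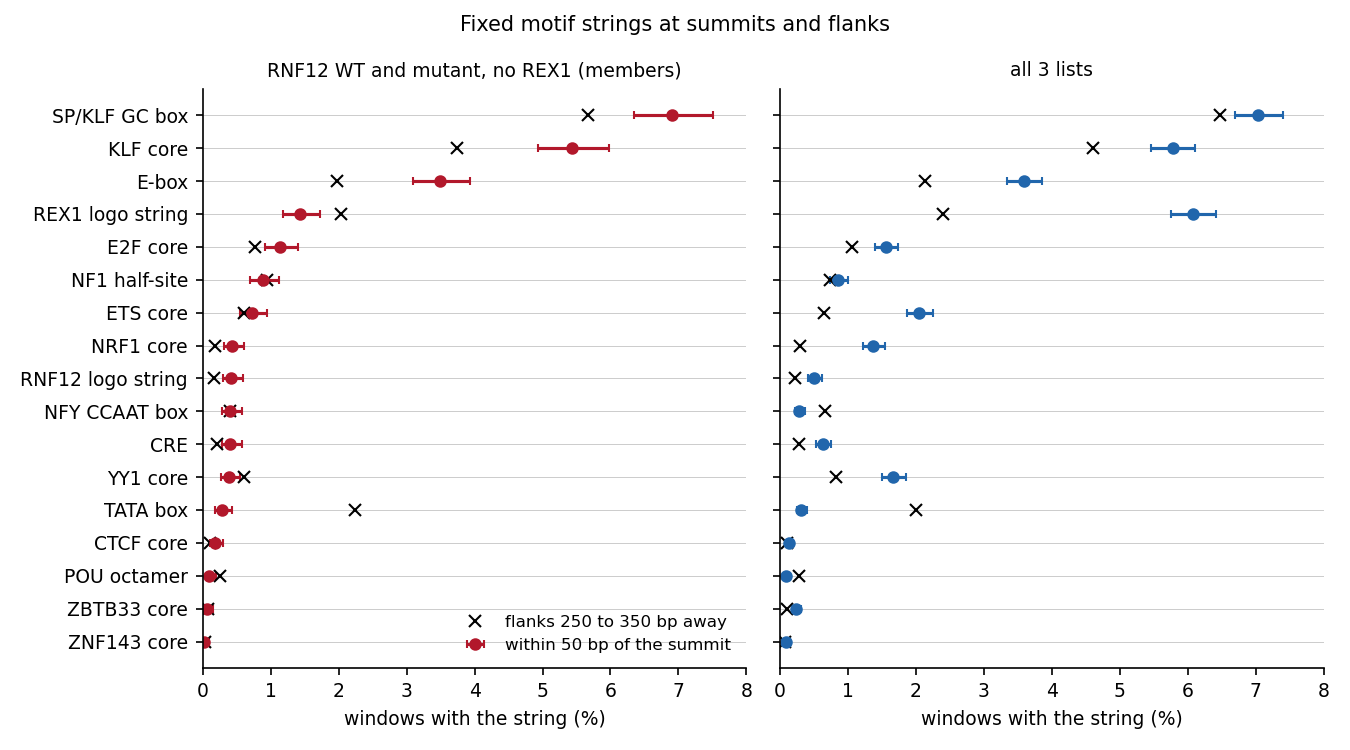
Percentage of windows with each fixed motif string (x axis) within 50 bp of the summit (circles, with 95% Wilson intervals) and in flanks 250 to 350 bp away (crosses), for sites of both RNF12 lists without an overlapping REX1 peak (left) and sites in all 3 lists (right). The REX1 logo string lies below its flanks on the left, at 1.43% against 2.03%, and above them on the right, at 6.07% against 2.40%.

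The RNF12 logo string with up to 1 mismatch occurred at 31 summits, 0.422% (0.298% to 0.599%), against 0.164% of flanks, 0.507% of sites in all 3 lists and 0.127% of windows at protein-coding TSSs. Among the 6609 sites with a summit sequence found once it occurred at 14, or 0.212% (0.126% to 0.355%), against 0.106% of their flanks, so most of the 31 matches lie at repeated summits. The TATA box TATAAA was at 0.286% of summits and 2.25% of flanks. The CTCF core stood at 0.177% against 0.102%, the NFY CCAAT box CCAATCAG at 0.409% in both, and the NFI string YTGCCAAG at 0.886% against 0.954%. The octamer ATGCAAAT was at 0.0954% against 0.259%, the ZBTB33 core TCTCGCGAG at 0.0681% against 0.0818% and the ZNF143 core ACTACAATT at 0.0273% against 0.0341%, so none of the octamer, ZBTB33 and ZNF143 strings stood above the flanks. At protein-coding TSSs the TATA box was at 3.87%, the CTCF core at 0.0837%, the CCAAT box at 0.840%, the NFI string at 0.969%, the octamer at 0.311%, ZBTB33 at 0.317%, ZNF143 at 0.0880% and YY1 at 2.05%.

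The 5 words of 8 bases that stood out most between summits and flanks, ranked without a test, were CCTGCTGC, at 3.15% of summits against 1.35% of flanks, GCAGCAGC (4.50% against 2.33%), GCTGGGCC (2.94% against 1.27%), CAGCAGCA (3.37% against 1.56%) and GCCCAGCA (2.15% against 0.858%), each counted with its reverse complement. CCTGCTGC and CAGCAGCA were at 3.32% and 3.83% of sites in the RNF12 WT list alone. Among sites with no soft-masked base GCTGGGCC ranked first, and GCAGCAGC and CAGCAGCA were not among the first 10. GCAGCAGC was about as frequent in all 3 lists, at 4.60%, and in the RNF12 WT list alone, at 4.08%, and stood at 2.505% of windows at protein-coding TSSs, with differences of −0.105 points (−0.645 to 0.468) and 0.421 points (−0.239 to 1.08).

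Of the 21755 protein-coding genes on these chromosomes, 5036 had one of the sites within 1 kb of a TSS, a background of 23.1%. Only the 14992 with an RNF12 WT promoter summit could hold a site, and of these 33.6% did. Genes with more annotated TSSs had one more often: 13.0% of genes with 1 TSS, 17.1% with 2 or 3, 27.7% with 4 to 6 and 37.5% with 7 or more. The median number of TSSs is 3 over all protein-coding genes. It is 2.5 to 4 in the naive, primed, TGF-beta, Zfp, translation factor, respiratory chain and mitochondrial ribosomal lists, 5 to 7 in the RNF12-REX1, ubiquitin-conjugating, proteasome, heat-shock, spliceosome, replication, cytosolic ribosomal, Polycomb, tRNA synthetase and DNA repair lists, and 1 or 2 in the histone, protocadherin, Hox and olfactory receptor lists. Only 669 protein-coding genes, 3.08%, had one of the sites and no REX1 summit within 1 kb of any TSS.

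Of 20 naive pluripotency factor genes, 13 (65.0%, 43.3% to 81.9%) had one: Gbx2, Klf2, Klf4, Klf5, Nr5a2, Prdm14, Sall4, Sox2, Stat3, Tbx3, Tfcp2l1, Tfe3 and Zfp281. Their median number of TSSs was 2.5. The strongest were at Tfe3, coding for a transcription factor whose nuclear exit accompanies the loss of naive pluripotency (RNF12 WT 5.83, mutant 8.85, REX1 peak at 16 bp), and at Klf5 (4.1975, 14.3 and 42 bp). Prdm14 alone of the 13 had no REX1 summit at a TSS. Of 19 genes of the primed state and FGF signalling, 11 (57.9%, 36.3% to 76.9%) had a site and all 19 had a REX1 summit. At Fgf4, the autocrine ligand that moves mESCs towards differentiation, the site lay 517 bp downstream of the TSS with values of 5.33 and 15.6. At Etv5, a target of FGF and ERK signalling, they were 4.99 and 19.9, with a REX1 peak at 66 bp.

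Of 31 Polycomb subunit genes, 18 (58.1%, 40.8% to 73.6%) had a site, with a median of 7 TSSs, and Pcgf3, chosen for naming after its values were seen, was the gene with a site but no REX1 summit. Phc2 (8.69 and 16.4) and Phc1 (9.32 and 15.9), both coding for Polyhomeotic proteins, had the strongest. Of 39 Hox genes, 19 (48.7%, 33.9% to 63.8%) had a site, with a median of 2 TSSs, led by Hoxb4 (7.91 and 12.2) and Hoxd8 (5.68 and 11.957). Of 27 TGF-beta, Nodal and SMAD genes 9 had a site (33.3%), among them Smad5 (6.26 and 18.8) and Id3 (5.94 and 9.65). The intervals of the naive, primed, Polycomb and Hox lists lay above 23.1%, and that of the TGF-beta list held it. Among genes with an RNF12 WT promoter summit the background was 33.6%. There the shares were 81.25% (naive), 57.9% (primed), 58.1% (Polycomb), 50% (Hox) and 34.6% (TGF-beta), without intervals.

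Of the 20 genes of the RNF12-REX1 axis and RNF12 substrates, 8 (40%, 21.9% to 61.3%) had a site and 18 a REX1 summit. The interval holds both the 23.1% of all protein-coding genes and the 27.7% of genes with 4 to 6 TSSs. Ldb1, a LIM-domain cofactor and RNF12 substrate, was nearest to 3 sites, the strongest with values of 8.14 and 16.8, a summit 245 bp upstream of a TSS and a REX1 peak at 14 bp. Its other sites had RNF12 WT values of 5.33 and 2.67. The last had the same mutant value as the strongest, 16.8, so both may rest on 1 mutant peak. Lhx3, a LIM homeobox gene, was nearest to 2 sites (5.33 and 13.4, and 4.22 and 8.81), and Lhx2 to 1 (3.21 and 7.49). The Yy1 site lay in the coding exon, 813 bp downstream of the TSS, with values of 3.20 and 17.5. Lmo2 (2.67 and 6.65), the Notch ligand gene Dll1 (3.83 and 11.1), Unc13a, a synaptic vesicle priming gene with 2 sites (5.64 and 6.31, and 3.80 and 3.90), and Gfap, an astrocyte filament gene (4.36 and 4.87), completed the list. Gfap was the member without a REX1 summit at a TSS, with its nearest REX1 peak 3707 bp away.

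Among genes of protein turnover and synthesis, the 39 ubiquitin-conjugating enzyme genes had sites at 15 (38.5%, 24.9% to 54.1%). The list has a median of 5 TSSs, and its interval holds the 27.7% of genes with 4 to 6 TSSs. It includes 2 strong sites at Ube2q1 with RNF12 WT values of 6.91 and 6.78 and a mutant value of 22.2 at each. The interval of the 37 proteasome subunit genes, with sites at 13 (35.1%, 21.8% to 51.2%), held the 23.1% of all genes. The strongest was at Psmd9, a proteasome assembly chaperone gene, at 5 bp upstream of the TSS, with values of 11.4 and 12.3 and no REX1 peak within 30783 bp. Heat-shock protein genes had sites at 5 of 24 (20.8%), led by Dnaja2 (5.07 and 12.7) and Dnaja1 (5.78 and 9.18). Translation factors had them at 19 of 67 (28.4%), with Eif3g (7.73 and 16.2) and Eif4g1 (5.85 and 17.0) first. Cytosolic ribosomal protein genes had them at 18 of 85 (21.2%), led by Rpl17 (6.57 and 14.6) and Rpl39l (8.21 and 11.2). Spliceosome genes had them at 18 of 79 (22.8%), led by Srsf4 (7.04 and 13.0) and Lsm12 (6.01 and 14.6). Mitochondrial ribosomal protein genes, at 10 of 78 (12.8%, 7.12% to 22.0%), lay below the background, with Mrps6 (6.75 and 16.6) and Mrps12 (9.38 and 12.3) first. Respiratory chain genes, with a median of 4 TSSs, had sites at 15 of 95 (15.8%, 9.81% to 24.4%), an interval that holds 23.1% and lies below the 27.7% of genes with 4 to 6 TSSs, with Ndufb6 (5.19 and 16.8) and Cox4i1 (4.58 and 17.4) first. Among genes with an RNF12 WT promoter summit, the shares were 44.1% (ubiquitin-conjugating), 36.1% (proteasome) and 30.2% (translation), against 33.6% of all. They were 23.4% (spliceosome), 22.2% (cytosolic ribosomal), 20.8% (heat-shock), 16.7% (respiratory chain) and 13.3% (mitochondrial ribosomal).

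Sites were found at 11 of 41 genes for DNA replication (26.8%), with Orc1 (4.81 and 10.2) and Cdc6 (5.18 and 7.79), 7 of 42 for DNA repair (16.7%), with Ogg1 (7.87 and 10.3) and Fanca (7.18 and 10.2), and 6 of 35 for tRNA synthetases (17.1%), with Vars2 (4.96 and 8.77) and Aars2 (5.96 and 5.50). Their intervals all held 23.1%, but those of DNA repair (8.32% to 30.6%) and tRNA synthetases (8.10% to 32.7%), both with a median of 7 TSSs, lay below the 37.5% of genes with 7 or more TSSs. Of 394 Zfp zinc-finger genes 84 had a site (21.3%, 17.6% to 25.6%), led by Zfp407 (8.10 and 19.5) and Zfp512b (7.30 and 20.5), and 16 of the 84 had no REX1 summit. Among genes with an RNF12 WT promoter summit the shares were 27.5% (replication), 16.7% (repair), 17.6% (tRNA synthetases) and 25.9% (Zfp), against 33.6% of all.

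None of 67 replication-dependent histone genes had one, which allows a share of up to 4.48% by a limit of 3 counts and 5.42% by the Wilson interval, although 64 of them had an RNF12 WT promoter summit and 63 a site in all 3 lists. These genes have a median of 1 TSS. Clustered protocadherin genes had sites at 4 of 57 (7.02%, 2.76% to 16.7%), which is 19.05% of the 21 with any RNF12 WT promoter summit, against 33.6% of the 14992 protein-coding genes with one, and 3 of the 4 had no REX1 summit. At Pcdhga3 and Pcdha9 the values were 6.39 and 6.12, and 3.41 and 11.2, with a summit sequence found 2 and 10 times in the genome. Olfactory receptor genes had sites at 5 of 1135 (0.441%), with Olfr94 (4.59 and 10.2) and Olfr750 (5.54 and 5.81), and 30 of them had any RNF12 WT promoter summit.

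**Figure D5:**
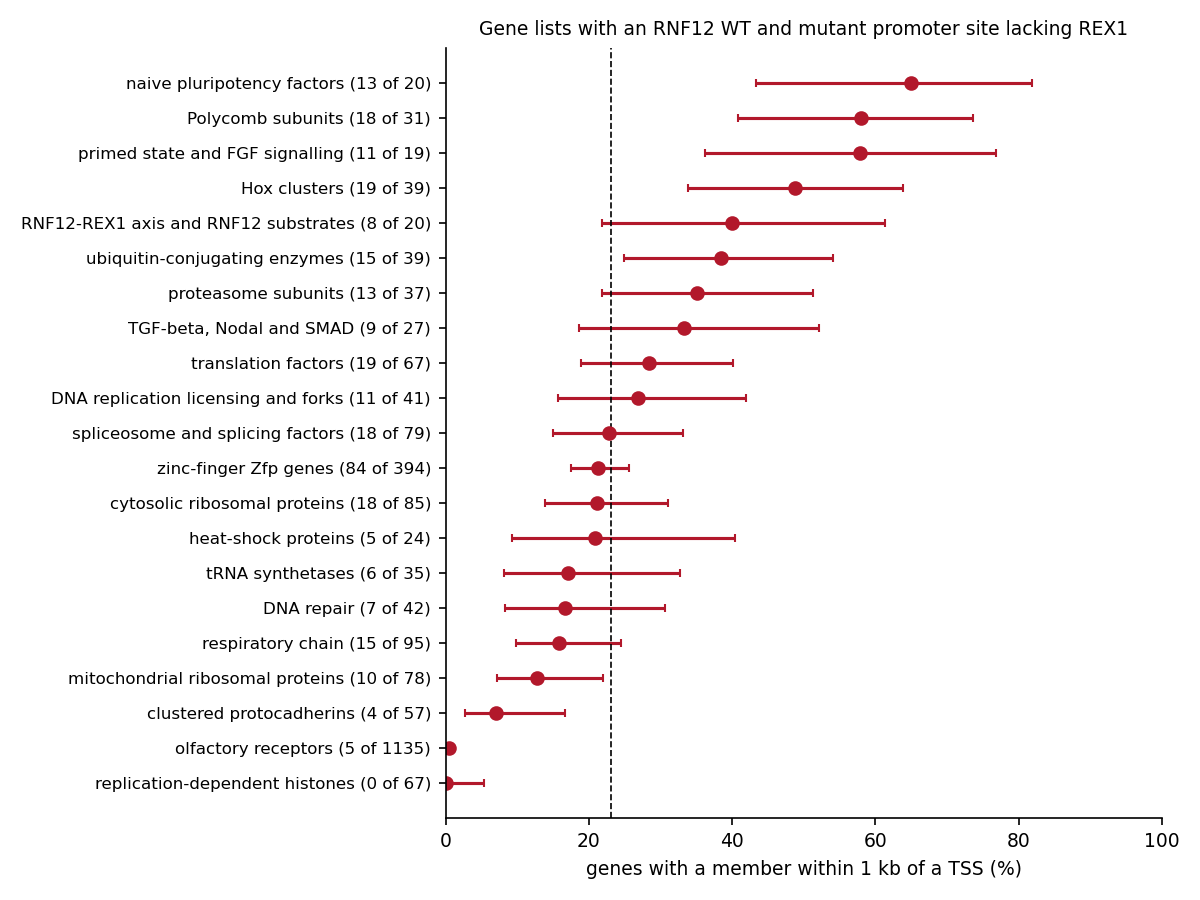
Share of the genes of each list (x axis, %) with a site of both RNF12 lists that no REX1 peak overlaps within 1 kb of a TSS, with 95% Wilson intervals; counts stand beside each name and the dashed line is the 23.1% of all protein-coding genes. Naive pluripotency factors (13 of 20) lie highest and replication-dependent histones (0 of 67) lowest.

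The sites were spread over all 20 chromosomes except for a low number on chromosome 12. There, 88 sites made up 9.18% (7.51% to 11.2%) of the RNF12 WT promoter summits, against 16.9% to 22.2% on the others. The RNF12 WT list holds 2289 peaks on chromosome 12, fewer than the 5892 of the REX1 list and the 4303 of the mutant list. On chromosome 10 it also holds fewer, 3070 against 4554 and 4672, and there the share was the highest, at 22.2%. The source of the low share on chromosome 12 was not tested. Without chromosome 12 the share of RNF12 WT promoter summits that are such sites was 19.8%.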

How the data were processed

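ChIP-seq peak lists of 3 proteins in mESCs, with 1 library each, were analysed as deposited. Per the study's methods and the submitters' processing notes, the authors trimmed reads with Trim Galore 0.6.7, aligned them with Bowtie2 2.5.0 to mm10 with strain variants masked, handled them with SAMtools 1.10 and called narrow peaks per list with MACS2 2.2.7.1. The deposited lists hold, for each peak, a fold enrichment (a ratio to the local background) and −log10 p and q values written by the authors' peak caller. The integer score that the authors' peak caller derived from the q value was not used. Read depth is unknown.

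Distances to TSSs of GENCODE M21 transcripts, annotation at the summit, and sequence from RefSeq GRCm38 (the build of the lists, checked on chromosome lengths) were computed with Python 3.11.15, numpy 2.4.6, pandas 2.3.3, scipy 1.17.1, numba 0.67.0 and matplotlib 3.10.9. Overlap meant at least 1 bp. Motif strings were looked for on either strand, up to 50 bp from a summit and in a flank on each side. A string stood above its flanks where the lower bound of its interval exceeded the flank share. Shares have 95% Wilson intervals and differences 95% Newcombe intervals, tested on simulated data. No p-value was computed, since each list is 1 library. The sites and the gene lists were chosen with earlier results of these data known.

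Named sites were the 10 with the lowest sum of ranks in RNF12 WT and mutant fold enrichment among those eligible, the 2 sites with the lowest such sum in each gene list (taken from all sites, so that repeated or soft-masked summits occur among them), all sites nearest to a gene of the RNF12-REX1 list, and the 3 on either side of the 1 kb limit. Genes with the most sites, genes without a REX1 summit and sites farther than 10 kb from REX1 were named after their values were seen. Windows with an untranslated region are not printed, a departure from the planned rule. The example site of 1 motif string is not reported here. Alternatives changed the q threshold, overlap, REX1 distance, TSS set and window. Leaving out chromosome 12 and leaving out repeated summits were chosen after seeing the data.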

Additional observations from a re-analysis of the deposited data

How the results depend on the processing

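The differences from sites in all 3 lists in the downstream, CpG-rich, soft-masked and REX1 logo string shares kept their direction under the alternatives run; the other differences and the gene lists were not recomputed. Summary values that moved beyond the counting interval are given by setting, with 37 shares of single motif strings that also moved given as a count, and the cause was not tested beyond what each setting changes by construction. The q thresholds held the REX1 list too, so RNF12 sites overlapped only by weaker REX1 peaks joined the set. With a −log10 q of at least 2 in all lists, the sites were 20.2% of RNF12 WT promoter summits. With at least 5, they were 27.6%, the median position was 55 bp downstream, the median GC content 67.3%, the downstream share 61.5%, the CpG-rich share 74.2%, the soft-masked share 19.1%, the share of nearest genes with a REX1 summit 62.5% and the share of protein-coding genes with a site 20.4%. The differences from sites in all 3 lists were then 3.89 points (downstream), −13.1 (CpG-rich), 2.81 (soft-masked) and −6.38 (REX1 logo string).

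The 50% overlap applied to the RNF12 WT and mutant peaks only, with the REX1 criterion unchanged. With an overlap of at least 50% of both peaks there were 3008 sites (8.00%), with values in the same order of 63 bp, 65.3%, 61.2% and 50.3%, a REX1 summit at 71.2% of nearest genes, a site at 10.6% of protein-coding genes, and differences of −30.4 points (CpG-rich), 6.96 (soft-masked) and −5.91 (REX1 string). With no REX1 peak within 1 kb of the summit there were 2376 (6.32%), at a median of 66 bp, with 64.4% GC, 42.8% CpG-rich, 27.8% soft-masked, a REX1 summit at 39.6% of nearest genes, a site at 6.51% of protein-coding genes, the REX1 string at 1.81%, and differences of −37.8, 10.2 and −3.31 points.

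With a 500 bp limit to the TSS the values were 55 bp, 61.4% downstream, 65.2% CpG-rich, 20.8% soft-masked, 72.8% of genes with a REX1 summit and 19.7% of genes with a site, and the CpG-rich difference was −19.7 points. With TSSs of protein-coding genes only they were 64.7% CpG-rich, 19.9% soft-masked, 86.2% with a REX1 summit and 1.16% with the REX1 string, with differences of −19.4 (CpG-rich) and 3.60 points (soft-masked). Within 25 bp of the summit the REX1 string was at 0.709%. Without repeated summits the values were 64.7% CpG-rich and 83.2% with a REX1 summit, with differences of −19.1 and 3.13 points. The number of sites was 7251 with a −log10 q of at least 2, 5629 with at least 5, 5913 with the 500 bp limit and 6396 with TSSs of protein-coding genes only. Of the motif strings, most moved within 25 bp of the summit, a narrower window by construction. Other moves, as examples, were ETS at 1.49%, NRF1 at 0.675%, E2F at 1.42% and ZNF143 at 0.107% with a −log10 q of at least 5. With no REX1 peak within 1 kb, the RNF12 logo string was at 0.673%, YY1 and E2F each at 0.631% and GCAGCAGC at 6.23%, and ZNF143 and the octamer had no match. The RNF12 logo string was at 0.212% without repeated summits and 0.266% with the 50% overlap. The downstream difference was 1.18 points (−0.834 to 3.17) with the 50% overlap and 1.79 (−0.267 to 3.80) with no REX1 peak within 1 kb. No paired analysis was possible because each list is 1 library.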
